A study of Mus musculus with 10 samples.

Results

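Glucose is taken up by transporters, trapped as glucose 6-phosphate by hexokinases and split by the enzymes of glycolysis to pyruvate, which is reduced to lactate in the cytosol or oxidised in mitochondria. The pentose phosphate pathway branches off at glucose 6-phosphate and yields NADPH and ribose 5-phosphate. 35 mouse genes of these routes were listed by their place in the pathway: transporters of glucose and lactate, the enzymes of glycolysis, the kinases that hold back pyruvate dehydrogenase, and the pentose phosphate enzymes. A probe was matched for 34 of them, out of 27666 genes with a probe on the array, and all 34 gave signals well above background on all 10 arrays. For the remaining listed gene, Rpia (ribose 5-phosphate isomerase), no probe was matched.

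The study measured RNA of whole lung in 5 p53-null and 5 wild-type mice on 1-colour oligonucleotide arrays, 1 sample per array. All 10 mice were 8-week-old males that had breathed aerosolized saline for 30 min before the lung was taken, and the background of both groups is given as C57BL/6J. The allele that removes p53 is not named in the labels, and the samples analysed here are all from baseline, so every comparison below is p53-null against wild type after saline. The replicates are labelled as biological replicates.

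The transcription factor p53, encoded by Trp53, is best known for stopping the cell cycle and for apoptosis, and it is also described as a restraint on glycolysis. In cultured cells, mostly human, it has been reported to activate TIGAR, whose product breaks down fructose 2,6-bisphosphate and so diverts glucose into the pentose phosphate pathway, to repress the glucose transporters GLUT1 (Slc2a1) and GLUT4 (Slc2a4) and the kinase PDK2, and to lower phosphoglycerate mutase. Several glycolytic steps are served by isoforms with different tissue use, for instance Hk3 and Slc2a3 in white blood cells and Pfkm in muscle.

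Values below are log2 signals scaled by subtracting the 75th percentile of each array, so a value of 0 lies at that percentile. Differences are p53-null minus wild type with their standard error (SE), and a gene was called at an adjusted p under 0.05 over all 21111 genes tested. Levels of different genes were not set against each other, since each comes from its own probe. Between 71.4% and 84.0% of the spots of an array were well above background. The Trp53 probe printed 10 times on each array differed by -1.28 ± 0.16 (adjusted p = 0.00589 over probes), with signals of -3.15, -2.99, -3.11, -2.998 and -2.66 on p53-null arrays 1 to 5, against -1.67, -1.64, -1.54, -1.43 and -2.22 on wild-type arrays 1 to 5. Wild-type array 5 lay between the other wild-type arrays and the p53-null arrays. A second Trp53 probe, of unknown place relative to the deleted part, gave 0.31 ± 0.28 (adjusted p = 0.504). All 12 lung epithelial markers, among them Sftpc and Scgb1a1, were well above background on all 10 arrays, and 1 of them, Nkx2-1, was called, lower in p53-null lungs. 3 arrays carried skeletal muscle RNA: the mean deviation over 13 muscle markers was 2.59 and 2.47 on p53-null arrays 4 and 5 and 3.45 on wild-type array 2, against -1.73 to -0.92 on the other 7 arrays. Of the 3 arrays with muscle RNA, p53-null array 5 and wild-type array 2 also carried squamous epithelial RNA, with scores over 8 markers of 4.77 on p53-null array 5 and 5.98 on wild-type array 2, against -1.79 to -0.79 on the other 8 arrays. Results were therefore also computed without wild-type array 5 and without the 3 arrays with muscle RNA.

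The probes of the hexokinases and of Tigar are printed here because Hk3 was called from a single probe, the Hk1 probes gave different values, and Tigar is the glycolytic gene most often linked to p53. Probe sequences and mm7 coordinates are those of the array files, 5′ to 3′, and all 4 lie on the minus strand. The Hk3 probe, the only one for that gene, lies at chr13:54088929-54088988. The 2 Hk1 probes, at chr10:61790367-61790426 and chr10:61794421-61794480, gave different values and are compared below. The Tigar probe spans chr6:127112879-127113828, a stretch longer than the probe itself.
Hk3: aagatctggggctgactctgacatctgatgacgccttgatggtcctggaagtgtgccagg
Hk1, first probe: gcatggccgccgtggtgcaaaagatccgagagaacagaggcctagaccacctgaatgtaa
Hk1, second probe: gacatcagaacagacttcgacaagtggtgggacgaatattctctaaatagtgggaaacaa
Tigar: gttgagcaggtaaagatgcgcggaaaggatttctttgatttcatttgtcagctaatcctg

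Of the 34 genes, 2 were called, Slc2a3 and Hk3, and both were higher in p53-null lungs, by 2.18-fold and 2.14-fold. Among all 21111 genes tested, 7.46% were called, 4.58% higher and 2.88% lower, so 2 of 34 is close to the background share. With a dependence on probe GC content removed, the calls over all genes were split into 172 higher and 55 lower, against 966 and 609 without that step, and Slc2a3 and Hk3 were the members called in both. None of the 34 was called lower by limma. An unadjusted p under 0.05 in either direction was found for 7 of the 34, against 5824 of all 21111 genes. The median difference was 0.050 over the 34 genes and 0.050 over all genes tested, and 22 of the 34 differences were positive, against 56.3% of all genes. The 32 genes not called had differences between -0.38 and 0.33. For 26 of the 34 genes the 95% interval lay within 1.5-fold of no difference in both directions, which held for 48.9% of all genes. The groups did not overlap for 2 of 34 genes, again Slc2a3 and Hk3, against 9.31% of all genes (5.44% higher and 3.87% lower in p53-null lungs).

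**Figure D1:**
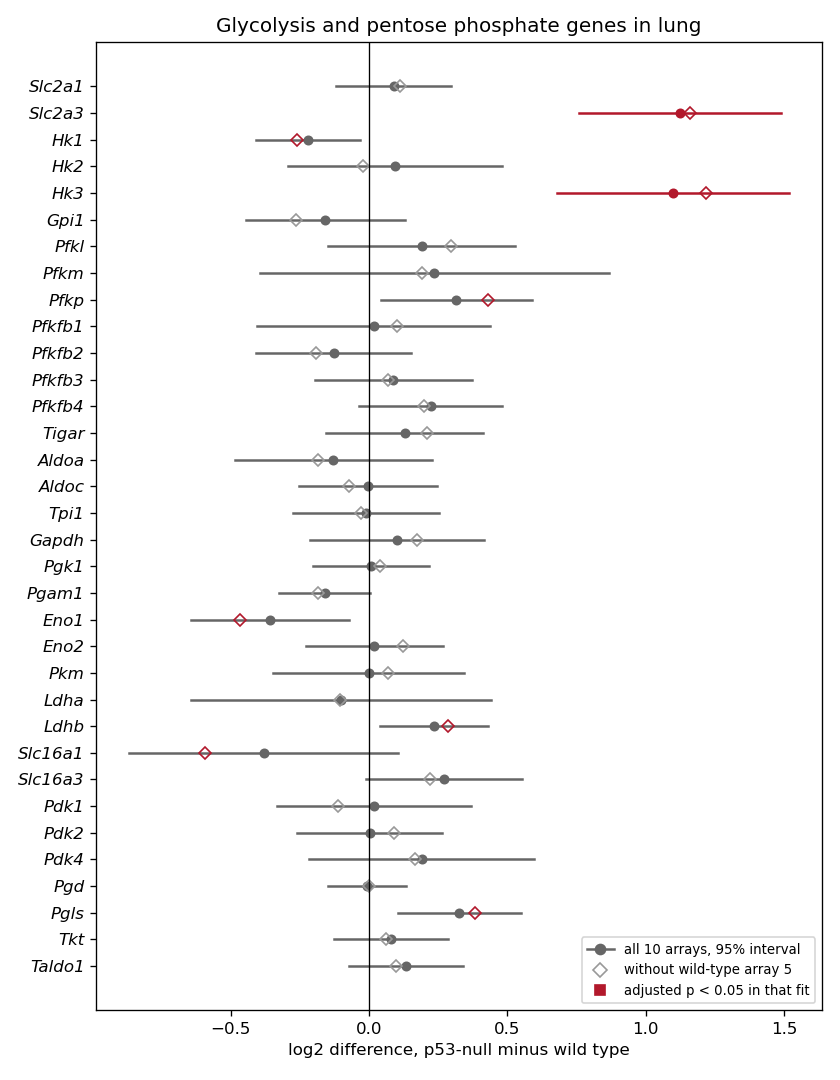
Difference in log2 signal, p53-null minus wild type, for each of the 34 genes with its 95% interval, arranged by role. Slc2a3 and Hk3 lie at 1.12 and 1.10, while the other 32 differences lie between -0.38 and 0.33.

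Glucose uptake was represented by 2 transporters. Slc2a3 encodes GLUT3, a high-affinity transporter of neurons and white blood cells. Its signals were 0.30, -0.39, 0.037, -0.25 and -0.37 on p53-null arrays 1 to 5, against -1.07, -1.26, -1.67, -1.17 and -1.11 on wild-type arrays 1 to 5. Every p53-null array lay above every wild-type array, wild-type array 3 being the lowest and p53-null array 1 the highest. The means were -0.14 ± 0.30 in p53-null lungs and -1.26 ± 0.24 in wild-type lungs (SD, n = 5 each), a difference of 1.12 ± 0.16 with a 95% interval of 0.76 to 1.49 (limma, adjusted p = 0.0126). The 2 other Slc2a3 probes were well above background on 0 and 4 arrays and were not tested. Slc2a1, which encodes GLUT1, the widely expressed basal transporter, had signals of 2.08, 1.95, 2.23, 2.03 and 2.09 in p53-null lungs, against 1.89, 2.16, 2.03, 1.77 and 2.09 in wild-type lungs. The groups overlapped over most of their range. The difference of 0.089 ± 0.093 (adjusted p = 0.579) had an interval of -0.12 to 0.30, so a change in Slc2a1 of the size seen in Slc2a3 lay outside it.

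Hexokinases commit glucose to metabolism by phosphorylating it, and the 3 members are encoded by different genes. Hk3, the isoform typical of myeloid cells, had signals of -1.38, -1.70, -1.84, -1.89 and -2.06 on p53-null arrays 1 to 5, against -2.87, -3.16, -3.28, -2.65 and -2.40 on wild-type arrays 1 to 5. The groups did not overlap. Means were -1.77 ± 0.26 in p53-null and -2.87 ± 0.36 in wild-type lungs (SD, n = 5 each), and the difference was 1.10 ± 0.19 with an interval of 0.68 to 1.52 (adjusted p = 0.0169). This call was lost without p53-null array 3, where the difference was 1.12 (adjusted p = 0.0523). Hk2, the insulin-responsive isoform that is high in muscle and in many tumours, had signals of 1.91, 1.69, 2.01, 2.17 and 2.01 in p53-null lungs, against 1.96, 2.36, 1.98, 1.63 and 1.40 in wild-type lungs. Its groups overlapped, and the difference of 0.094 ± 0.17 (adjusted p = 0.769, interval -0.29 to 0.48) was -0.022 without wild-type array 5. Hk1, the isoform found in most tissues, differed by -0.22 ± 0.084 (adjusted p = 0.128) at the probe used. Of its 6 probes, 5 were well above background on all 10 arrays, and they disagreed in size and sign: the second probe printed above gave -0.55 ± 0.13 (adjusted p = 0.0398 over probes), while the first gave -0.13 ± 0.080 (adjusted p = 0.308). The remaining 2 gave -0.098 ± 0.086 and 0.36 ± 0.42, neither of them called.

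**Figure D2:**
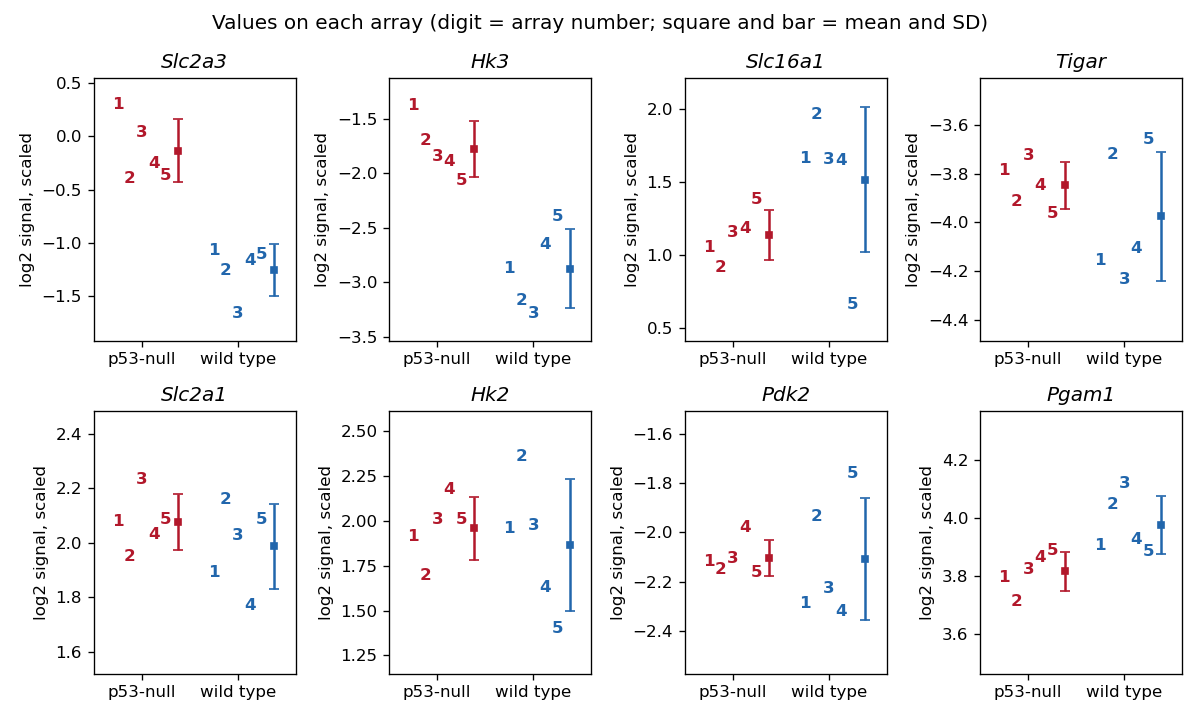
Scaled log2 signal on every array for the 8 genes described array by array, p53-null left of wild type in each panel. Each value is drawn as its array number, and a square with a bar gives the group mean and SD. The p53-null values lie wholly above the wild-type values for Slc2a3 and Hk3 and overlap them in the other 6 panels.

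For 4 classes of white blood cells, most listed markers were called higher in p53-null lungs, except in the macrophage and monocyte class. The neutrophil list had 12 genes tested, all well above background on all 10 arrays. Of these, 7 were called higher and 0 lower, with S100a9 (2.42), Csf3r (2.10) and Mmp9 (1.35) among the higher ones. Those not called were Ngp (0.68), Il1r2 (0.62), Camp (0.58), Cd177 (0.53) and Ltf (-0.17). The neutrophil score, the mean log2 deviation of the listed genes from their 10-array means, was 1.43, 0.23, 0.79, 0.50 and 0.093 on p53-null arrays 1 to 5, against -0.43, -0.37, -0.68, -0.62 and -0.95 on wild-type arrays 1 to 5. The scores of the 2 groups did not overlap. B cell markers were called higher for 8 of 10 genes and lower for 0, with scores of 0.31 to 1.29 in p53-null lungs, against -1.33 to -0.20 in wild-type lungs. Markers of T and NK cells were called higher for 7 of 13, with scores of 0.082 to 0.58 against -0.72 to 0.032 in wild-type lungs. Of 10 macrophage and monocyte markers, 1 (Csf1r) was called higher and 1 (Marco) lower, and the scores of -0.11 to 0.23 in p53-null lungs overlapped the -0.27 to 0.12 in wild-type lungs. Every marker of these 4 cell classes with a probe was well above background on at least 1 array. The part of these cells in the Slc2a3 and Hk3 differences was not tested. In whole lung, a change in the number of cells of a type and a change in RNA per cell cannot be told apart.

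**Figure D3:**
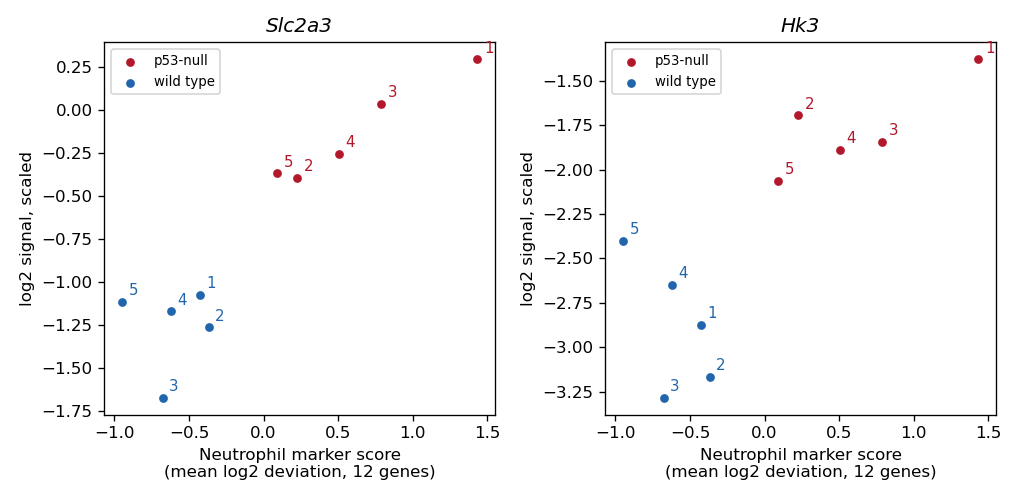
Scaled log2 signal of Slc2a3 (left) and Hk3 (right) against the neutrophil marker score of the same array, with array numbers beside the points, p53-null in red and wild type in blue. Array 1 of the p53-null group is highest on all 3 measures, and wild-type array 5 has the lowest neutrophil score and the highest wild-type Hk3 signal.

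Within each genotype the order of the arrays by neutrophil score was not the same for the 2 genes. In p53-null lungs, array 1 had the highest score and the highest Slc2a3 and Hk3 signals, and array 3 was second for the score and for Slc2a3. Array 2 of the p53-null group was second for Hk3 but lay behind arrays 1, 3 and 4 for the score. Among the wild-type arrays, array 5 had the lowest score (-0.95) with the highest Hk3 signal (-2.40). No correlation is given, since all 3 measures differ between the genotypes and each genotype has 5 arrays.

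Phosphofructokinase sets the pace of glycolysis and is built from liver, muscle and platelet subunits. Pfkl differed by 0.19 ± 0.15 (adjusted p = 0.451), Pfkm by 0.24 ± 0.28 (0.632) and Pfkp by 0.32 ± 0.12 (0.131), and none was called. Pfkm, the muscle subunit, spanned 1.601 to 2.14 in p53-null lungs, against 1.12 to 2.83 in wild-type lungs, where array 2, the wild-type array with skeletal muscle RNA, stood apart at 2.83 and the next array reached 1.57. The p53-null arrays with muscle RNA, 4 and 5, did not stand apart, with 2.14 and 1.92 against 1.97, 1.601 and 2.12 on p53-null arrays 1 to 3. Pfkp, the platelet subunit, spanned 0.59 to 0.78 in p53-null lungs and 0.23 to 0.84 in wild-type lungs, the highest wild-type value being array 5. Without that array the Pfkp difference was 0.43 ± 0.061 (adjusted p = 0.00171), and with the dependence on probe GC content removed as well it was 0.25 ± 0.10 (adjusted p = 0.117). Its 2 further probes gave 0.24 ± 0.17 and 0.67 ± 0.26, neither of them called. Gpi1, which interconverts glucose 6-phosphate and fructose 6-phosphate, differed by -0.16 ± 0.13 (adjusted p = 0.459).

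Fructose 2,6-bisphosphate, the strongest activator of phosphofructokinase, is made and removed by the 4 Pfkfb enzymes and removed by Tigar. Tigar signals were -3.79, -3.91, -3.72, -3.85 and -3.96 on p53-null arrays 1 to 5, against -4.16, -3.72, -4.24, -4.11 and -3.66 on wild-type arrays 1 to 5. The p53-null arrays lay inside the wild-type range, and wild-type array 5 was the highest of all 10. The difference was 0.13 ± 0.13 with an interval of -0.15 to 0.41 (adjusted p = 0.552), and a second probe, at the same gene, gave 0.023 ± 0.11. A difference below -0.15 therefore lay outside the interval. Leaving out wild-type array 5 gave a Tigar difference of 0.21 ± 0.11 (adjusted p = 0.188). That array was the highest wild-type array for 11 of 14 member probes with a mean under -3, against 12 of 46 brighter ones. Pfkfb1, Pfkfb2, Pfkfb3 and Pfkfb4 differed by 0.016 ± 0.19, -0.13 ± 0.13, 0.088 ± 0.13 and 0.22 ± 0.12, with adjusted p between 0.244 and 0.967. Pfkfb3, the isoform with the highest kinase over phosphatase activity, had 3 probes, whose differences were 0.088, 0.34 and 0.37, all positive and none called.

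The aldolases split fructose 1,6-bisphosphate, and triose phosphate isomerase balances the 2 products. Aldoa, the muscle and ubiquitous form, differed by -0.13 ± 0.16 and its second probe by -0.30 ± 0.15. For Aldoc, the brain form, the probe used gave -0.0040 ± 0.11, and its second probe gave 0.24 ± 0.083 (adjusted p = 0.0942 over probes), so the probes disagreed. Tpi1 differed by -0.0096 ± 0.12 (adjusted p = 0.969).

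The lower part of glycolysis, from Gapdh to pyruvate kinase, gives the net yield of ATP. Gapdh, often used as a loading standard, differed by 0.10 ± 0.14 (adjusted p = 0.691) at the probe used, which the array files place on chromosome 1, and by 0.0083 ± 0.12 at the probe placed on chromosome 6. Gapdh has many processed copies in the mouse genome, so which copies the first probe reads is uncertain. Pgk1 differed by 0.0064 ± 0.094 and Pkm, the pyruvate kinase of most tissues, by -0.0011 ± 0.15. Pgam1, the phosphoglycerate mutase of most tissues, had signals of 3.79, 3.71, 3.82, 3.86 and 3.89 on p53-null arrays 1 to 5, against 3.91, 4.05, 4.12, 3.93 and 3.88 on wild-type arrays 1 to 5. The groups overlapped, and the difference of -0.16 ± 0.074 (adjusted p = 0.192, interval -0.32 to 0.0047) was negative under every alternative setting tried and called under none of them. Eno1, the enolase of most tissues, differed by -0.36 ± 0.13 (adjusted p = 0.106) with all arrays and by -0.47 ± 0.081 (0.00370) without wild-type array 5. Eno2, the neuronal enolase, differed by 0.020 ± 0.11, and its 5 wild-type values were led by array 5 at -2.74, with the next at -3.22.

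Lactate is made from pyruvate by lactate dehydrogenase and carried across the membrane by monocarboxylate transporters. Slc16a1, which encodes MCT1, had signals of 1.06, 0.92, 1.16, 1.18 and 1.38 on p53-null arrays 1 to 5, against 1.66, 1.96, 1.66, 1.65 and 0.67 on wild-type arrays 1 to 5. Wild-type array 5 was the lowest of all 10 arrays, and the 4 other wild-type arrays lay above every p53-null array. The difference was -0.38 ± 0.22 (adjusted p = 0.288) with all arrays and -0.59 ± 0.11 (adjusted p = 0.00467) without wild-type array 5. The 2 other Slc16a1 probes gave -0.24 ± 0.13 and 0.064 ± 0.23 over all 10 arrays, neither of them called. Slc16a3, which encodes the lactate exporter MCT4, differed by 0.27 ± 0.13 (adjusted p = 0.197). Ldha, the subunit that favours lactate formation, differed by -0.10 ± 0.24. Its probe was saturated on wild-type array 3, where it read 4.23 against 5.21 to 5.73 on the other wild-type arrays, and its second probe gave 0.38 ± 0.18 (adjusted p = 0.204). Ldhb, the heart-type subunit, differed by 0.23 ± 0.088 (adjusted p = 0.121), and by 0.28 ± 0.075 (0.0207) without wild-type array 5. With probe GC content also accounted for, that Ldhb difference was 0.099 ± 0.11 (adjusted p = 0.565), and over all arrays it was 0.12 ± 0.11 (adjusted p = 0.563).

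Pyruvate dehydrogenase kinases switch off the entry of pyruvate into the citric acid cycle. Pdk2 signals were -2.12, -2.15, -2.11, -1.98 and -2.16 on p53-null arrays 1 to 5, against -2.29, -1.94, -2.23, -2.32 and -1.76 on wild-type arrays 1 to 5. The groups overlapped, and the difference of 0.0033 ± 0.12 (adjusted p = 0.990, interval -0.26 to 0.27) was negative with normexp background correction, median scaling and quantile normalization, so it has no settled direction. Pdk1 differed by 0.018 ± 0.15 over 5 p53-null and 4 wild-type arrays, its spot on wild-type array 3 having been dropped as an outlier by the scanner software. Pdk4, the isoform induced by fasting, differed by 0.19 ± 0.18 (adjusted p = 0.539).

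Of the pentose phosphate enzymes, Pgls, the lactonase of the oxidative arm, came nearest to the threshold, with signals of 1.83 to 2.16 in p53-null lungs, against 1.42 to 1.88 in wild-type lungs. Its difference was 0.33 ± 0.0995 (adjusted p = 0.0716), and a second probe gave 0.42 ± 0.14 (adjusted p = 0.0942 over probes). It was called with the mean over its probes (0.37, adjusted p = 0.0465), and without wild-type array 5 (0.38 ± 0.087, adjusted p = 0.0115). With the dependence on probe GC content removed, the Pgls difference was 0.095 ± 0.15 (adjusted p = 0.751) over all arrays and 0.0099 ± 0.13 (adjusted p = 0.969) without wild-type array 5. Pgd, which encodes an NADPH-producing enzyme, differed by -0.0059 ± 0.063, with an interval of -0.15 to 0.14. Its second probe gave 0.22 ± 0.13 (adjusted p = 0.316 over probes), a value above that interval. The enzymes of the non-oxidative arm, Tkt and Taldo1, which return pentoses to glycolysis, differed by 0.081 ± 0.092 and 0.14 ± 0.092 (adjusted p = 0.614 and 0.374).

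The number of genes called depended on single arrays. Slc2a3 was called whichever 1 array was left out, and Hk3 was called in each of those fits except without p53-null array 3. Without wild-type array 5, 8 of the 34 genes were called, 5 higher in p53-null lungs (Slc2a3, Hk3, Pfkp, Pgls and Ldhb) and 3 lower (Slc16a1, Eno1 and Hk1, the last at -0.26 ± 0.076, adjusted p = 0.0304). In that fit 31.3% of all genes were called, 17.1% higher and 14.3% lower, so 8 of 34 is below the background share. With the dependence on probe GC content removed in the same fit, 6 of the 34 were called: Slc2a3 and Hk3 higher, and Slc16a1, Eno1, Hk1 and Gpi1 lower. In that fit 4036 of all 21110 genes were called, 1165 higher and 2871 lower, so calls over the whole array were also mostly lower. Pfkp, Pgls and Ldhb were not called there. In the fit without wild-type array 5 and without GC removal, Slc2a3 and Hk3 differed by 1.16 ± 0.18 and 1.22 ± 0.17 (adjusted p = 0.00216 and 0.00158). With GC removal they differed by 0.97 ± 0.18 and 0.89 ± 0.18 (adjusted p = 0.00977 and 0.0118). Without the 3 arrays with skeletal muscle RNA, Slc2a3 and Hk3 differed by 1.24 and 1.16 (adjusted p = 0.145 and 0.156) over 3 p53-null and 4 wild-type arrays. None of the 34 genes was then called by limma, and 0.0474% of all genes were called (0.0189% higher and 0.0284% lower). An unadjusted p under 0.05 was found there for 3 of the 34, against 3477 of all 21110 genes. Both differences were thus at least as large without those arrays, but not called. Of the 6 slides, 1 held both genotypes, with 1 array of each. With slide as a fixed block the difference therefore rested on p53-null array 2 against wild-type array 4, and was 0.78 for Slc2a3 and 0.95 for Hk3. Within the lower of 2 slide number ranges they were 1.08 ± 0.18 (adjusted p = 0.156) and 1.02 ± 0.23 (adjusted p = 0.206), and within the higher range, which held 1 p53-null array, assumed to vary like the others, and 2 wild-type arrays, 1.03 ± 0.31 (adjusted p = 0.396) and 1.27 ± 0.37 (adjusted p = 0.396). All of these were positive and none was called.

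The order of arrays within a genotype was followed over the 33 genes with a value on all 5 wild-type arrays. The highest wild-type value fell on array 2, the one with skeletal muscle and squamous epithelial RNA and the highest heart muscle score (0.98), for 18 of 33 genes, against 12.2% of all genes. Arrays 1, 3, 4 and 5 held it for 4, 2, 0 and 9 genes, against 14.7%, 15%, 18.7% and 39.4% of all genes. Array 5, which led the wild-type arrays for the most genes of the whole array, thus came after array 2 here. The lowest wild-type value fell on array 4 for 14 of 33 genes, against 17.2% of all genes, and this array had the lowest muscle score of the 10. Arrays 1, 2, 3 and 5 held it for 0, 3, 8 and 8 genes, against 18.5%, 19.8%, 15.6% and 28.9%. Among p53-null arrays, array 2 was the highest for 1 of 34 genes, against 26.5% of all genes, and arrays 1, 3, 4 and 5 for 9, 8, 6 and 10, against 15.7%, 16.3%, 14.7% and 26.9%. Arrays 4 and 5, the p53-null arrays with skeletal muscle RNA, were thus close to their background shares. The part of RNA from these other tissues in these orders was not tested. The median SD within a genotype was 0.20 over the 34 genes, against 0.24 over all genes tested.

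**Figure D4:**
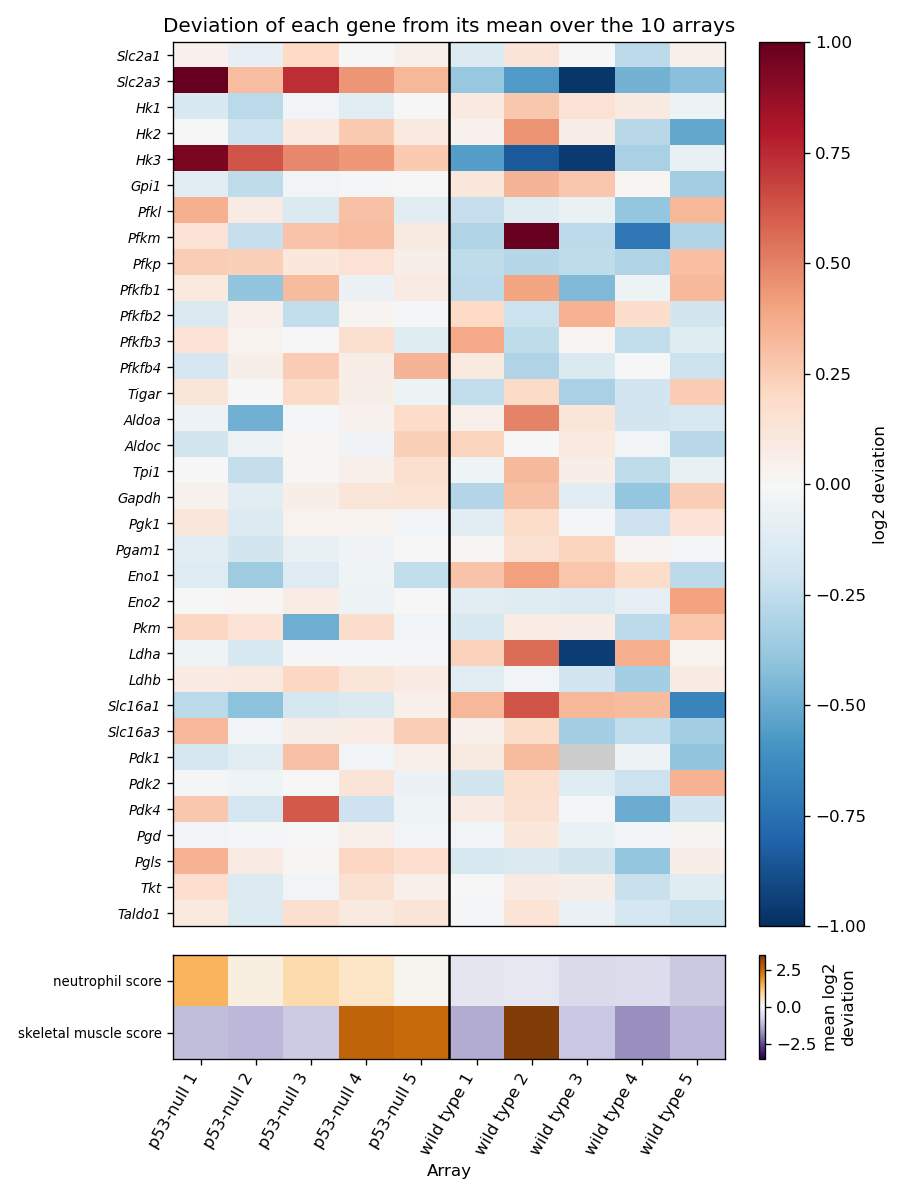
Deviation of each of the 34 genes (rows, by role) from its 10-array mean on every array (columns, p53-null left of wild type), on a log2 colour scale that stops at -1 and 1. Slc2a3 and Hk3 form the only 2 rows with all p53-null arrays above all wild-type arrays, and wild-type array 2 is high across many rows.

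A second list held 46 further genes of glucose uptake, glycolysis, pyruvate entry and the pentose phosphate route. They were chosen by pathway, with earlier results of these data known. Of the 46 genes, 41 were tested, and 3 were called, which is close to the 7.46% of all genes. Slc2a6, a glucose transporter of spleen and leukocytes, was higher in p53-null lungs by 1.37 ± 0.21 (adjusted p = 0.0127). Slc2a8, an intracellular transporter, was higher by 0.48 ± 0.12 (adjusted p = 0.0473). Pgm2, a phosphoglucomutase, was lower, with a difference of -0.53 ± 0.13 (adjusted p = 0.0427). The median over the 41 genes was -0.11.

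3 of the 34 genes lie on chromosome 11, as does Trp53: Aldoc at 8.74 Mb from the Trp53 probe, Pdk2 at 25.5 Mb and Slc16a3 at 51.4 Mb. None of the 3 was called, with differences of -0.0040, 0.0033 and 0.27.

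Promoter sequences, from 250 bases before to 50 after the start of each gene, were read from RefSeq (GRCm38.p6) for all of the 35 listed genes but Slc2a3. 3 motifs were searched on both strands: ACGTG, the core bound by the hypoxia-inducible factors; CACGTG, the E-box bound by MYC and by USF factors, which contains ACGTG; and the 10-base p53 half-site. ACGTG was found in 14 of 34 promoters, against 19.6% of 32851 promoters. CACGTG was found in 5 of 34, against 7.15%, and the p53 half-site in 1 of 34, that of Pgam1, against 8.36%. The Hk3 promoter held ACGTG at position -156 from the start, and the Tigar promoter held none of the 3. The promoters of Hk3, which was called, and of Pgam1, which held the half-site, are printed on their coding strand, 5′ to 3′, with the ACGTG match of Hk3 (on either strand) and the p53 half-site of Pgam1 in capitals; they lie at chr13:55021336-55021635 (minus strand) and chr19:41911621-41911920 (plus strand). A match describes the letters only.
Hk3 promoter: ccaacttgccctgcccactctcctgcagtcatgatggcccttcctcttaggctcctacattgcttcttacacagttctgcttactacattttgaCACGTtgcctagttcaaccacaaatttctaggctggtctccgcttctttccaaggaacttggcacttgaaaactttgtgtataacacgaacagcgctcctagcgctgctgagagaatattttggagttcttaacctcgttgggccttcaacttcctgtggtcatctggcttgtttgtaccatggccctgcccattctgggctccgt
Pgam1 promoter: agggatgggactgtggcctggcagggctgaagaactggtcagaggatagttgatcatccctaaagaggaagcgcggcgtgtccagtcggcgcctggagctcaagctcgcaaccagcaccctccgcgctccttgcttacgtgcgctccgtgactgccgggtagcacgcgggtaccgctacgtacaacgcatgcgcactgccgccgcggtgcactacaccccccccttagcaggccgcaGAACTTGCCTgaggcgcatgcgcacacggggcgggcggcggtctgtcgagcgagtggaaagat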

How the data were processed

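RNA of 10 whole lungs, 5 p53-null and 5 wild type, was labelled with Cy3 from 500 ng per the labels' protocols and read on 1-colour Agilent arrays. Spot intensities were made by the authors with Agilent Feature Extraction 9.5, as the submitters' processing notes state. The deposited processed signal is an intensity that was already background-corrected, per the file headers. The deposited series value table held the same intensities, with column medians of 250.0 to 451.6, so it is linear, uncentred and 1-colour, and it was not used further.

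From there, control spots and outlier-flagged spots were left out, signals were log2 transformed and the 75th percentile of each array was subtracted. Spots of a probe were averaged. Of 41174 probes, 23082 were named by accession, 6582 by symbol and 3073 by synonym through RefSeq GRCm38.p6, and 8437 kept the name in the file. Each gene was read by its brightest probe and tested if 5 or more of the 10 arrays had it well above background. The test was limma 3.58.1 (R 4.3.3), lmFit and eBayes, two-sided, with Benjamini-Hochberg adjustment over 21111 genes, and the steps were tested on simulated data.

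The genes and marker lists were chosen with earlier results of these data known. Values on every array are given for genes called with all arrays, for those called without wild-type array 5 with a difference of at least 0.5, and for Tigar, Slc2a1, Hk2, Pdk2 and Pgam1. Marker lists also covered red cells and platelets (1 of 7 called higher), endothelium (1 of 9 lower), fibroblasts and smooth muscle (3 of 11 lower), squamous epithelium (0 of 8), heart muscle (0 of 8) and adipocytes (1 of 8 higher). Skeletal muscle had 0 of 13 called by limma and a median difference of 0.76. 1 gene of the further pathway list is not reported here. The number of arrays limits the precision. The arrays came from 6 slides, 1 of which held both genotypes. Alternatives changed background, scaling, filter, probe, slide, scan day, weights, GC content and arrays left out.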

Additional observations from a re-analysis of the deposited data

Results flagged for a closer look

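In 8 of the 74 groups of 5 arrays examined, 1 array stood apart from the others, the gap to its nearest neighbour taking more than 0.71 of the range of the group. Chance alone gives about 1 in 20 groups. 3 of the 8 were wild-type array 5: Pfkp at 0.8354 with the next array at 0.2783, Eno2 at -2.736 with the next at -3.221, and Slc16a1 at 0.6651 with the next at 1.645. 2 were wild-type array 2, for the skeletal muscle score at 3.447, the next array being at -0.9635, and for Pfkm, the muscle subunit of phosphofructokinase, at 2.832 with the next at 1.568. Array 2 was the lowest p53-null array for Ldha at 5.017 (next 5.122) and for the transaldolase gene Taldo1 at 5.055 (next 5.28). Array 4 was the highest p53-null array for Pgd at 2.836, with the next at 2.776, a gap of small size in a narrow group.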

How the results depend on the processing

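Slc2a3 and Hk3 were higher in p53-null lungs under every alternative, by 0.78 to 1.24 and 0.89 to 1.27, and were the members called under normexp background correction, median scaling, quantile normalization, no filter, a filter on all 10 arrays, slide as a random block, slide number range as a block and scan day as a block. Both calls were lost with slide as a fixed block (differences 0.78 and 0.95), within the lower slide number range (1.08 and 1.02), within the higher one (1.03 and 1.27) and without the muscle arrays. By limma, 0 of the 34 genes were called in each of those 4 fits (0, 2, 2 and 3 at an unadjusted p under 0.05) and 0 at an adjusted p under 0.01, against 2 in the main analysis (7 unadjusted). The fits use fewer arrays or fewer residual degrees of freedom, and with slide as a fixed block the difference rests on 1 array of each genotype. Array quality weights gave 8 calls, GC removal without wild-type array 5 gave 6, and leaving out 1 array gave 1 to 8, the lowest without p53-null array 3 and the highest without wild-type array 5. Replicate numbers did not pair the arrays, since correlations of same-numbered deviations were -0.22 to 0.0014. With the replicate block, limma called 0 of the 34 genes, 25 genes in all and 0 of the further pathway genes. There, 4 of the 34 had an unadjusted p under 0.05, against 3995 of all 21110 genes.

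Over all genes, 1575 were called in the main analysis. The count was 580 with median scaling, 536 with no filter, 0 with slide as a fixed block (1133 unadjusted), 696 with slide number range as a block, 14 and 0 within the lower and higher range (2562 and 2594 unadjusted), 319 with scan day as a block, 6513 with weights, 227 with GC removed, 4036 with GC removed and no wild-type array 5, 10 without the muscle arrays, 55 at an adjusted p under 0.01 and 3524 under 0.1. Leaving out 1 array gave 191 to 6617. Of the further pathway genes, 3 were called in the main analysis, against 1 with median scaling, no filter, slide number range as a block, scan day as a block or GC removed. 5 were called with the filter on all 10 arrays, 6 with an intensity trend or an adjusted p under 0.1, 12 with weights, 9 with GC removed and no wild-type array 5, and 1 to 11 with 1 array left out. The count was 0 with slide as a fixed block, within either slide number range, without the muscle arrays and at an adjusted p under 0.01. The causes of these changes were not tested. Hk2 was -0.11 within the higher slide number range, -0.071 with GC removed and no wild-type array 5 and -0.022 to 0.22 with 1 array left out, the lowest without wild-type array 5. Pdk2 was -0.028 with normexp, -0.067 with median scaling, -0.071 with quantile normalization, -0.035 with slide number range as a block, -0.098 within the lower range, -0.027 with scan day as a block, -0.20 with GC removed, -0.24 with GC removed and no wild-type array 5, and -0.051 to 0.090 with 1 array left out. All 34 genes had signals well above background on all 10 arrays, so none was left untested for a dim signal.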

Other observations

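Without wild-type array 5, 11 of the 41 further pathway genes tested were called, 3 higher and 8 lower in p53-null lungs. Over all genes, 31.3% were called in that fit, 17.1% higher and 14.3% lower. The share called in either direction is below the background share, while the share called lower is above it. Of 8 tested genes that import pyruvate into mitochondria or belong to or activate pyruvate dehydrogenase, 3 were called lower in that fit. Over all genes 14.3% were called lower there. The 3 were Pdhb at -0.63 (adjusted p = 0.00199), Pdhx at -0.48 (0.00778) and Mpc2 at -0.40 (0.00831). The other 5 were not called: Dlat at -0.33 (adjusted p = 0.0565), Pdha1 at -0.13 (0.448), Dld at -0.082 (0.493), Pdp1 at -0.033 (0.845) and Mpc1 at 0.30 (0.0553). With all 10 arrays, Pdhb, Pdhx and Mpc2 differed by -0.47 ± 0.17, -0.42 ± 0.11 and -0.33 ± 0.10 and none was called (adjusted p = 0.116, 0.0546 and 0.0748). This group was picked after its values were seen.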
